A study of Mus musculus with 8 samples.

Results

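The contrast described here is between primary neurosphere arrays numbered 2 and those numbered 1 in the sample titles, and it holds 4 of the 8 arrays of the series, 2 per culture. Neural stem and progenitor cells were derived from mouse embryonic stem cells by way of embryoid bodies and grown as neurospheres, which are floating balls of dividing progenitors. Cells of a line that overexpresses the transcription factor NFIA were grown mixed with control cells, and fluorescence-activated sorting parted the cell types before RNA was taken. The arrays are NFIA-overexpressing (NFIA) and control cells of culture 2, and NFIA and control cells of culture 1, all primary neurospheres at passage 0 and day 6. The other 4 arrays hold the same cell types from secondary neurospheres, at passage 1 and day 12, also numbered 1 and 2. The members were chosen by title alone. As both cell types came out of 1 mixed culture, arrays of equal number are treated as 1 culture, although the labels do not state that they are, and how NFIA expression is driven is not given in the sources used here.

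The deposited labels conflict in ways that touch every value below. The authors' value table and the scanner files disagree on which array belongs to which title in 7 of 8 cases, PN_control 2 being the exception. Values below follow the value table. Each of its columns correlated at 0.9999 or more with a single scanner file and at no more than 0.3386 with any other. The source names also put PN_NFIA 1, titled as NFIA cells, in the WT line and both primary control samples in the NFIA line, and the titles are followed. Among the secondary samples, they put SN_NFIA 2 in the WT line and both control samples in the NFIA line. The titles are followed there too. All arrays shared 1 slide. By the value table, the culture 2 arrays sat at columns 4 and 2 of the slide's first row and the culture 1 arrays at columns 3 and 1, so culture and place on the slide cannot be told apart. Spots well above background made up 55.3% in NFIA and 54.0% in control cells of culture 2, against 56.4% in NFIA and 51.6% in control cells of culture 1.

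A neural tube carries position along 2 axes. HOX genes, a set of transcription factors in 4 genomic clusters, are switched on from the hindbrain to the tail of the spinal cord, with higher paralog numbers further back, and retinoic acid and the CDX factors help to turn them on. Forebrain cells instead express factors such as SIX3, SIX6, VAX1 and the DLX family, and carry no HOX expression. From back to belly, PAX3 and PAX7 mark dorsal progenitors, and GSX, NKX2-2 and OLIG2 mark more ventral ones. NFIA is a nuclear factor I protein that helps progenitors to take up astrocyte gene expression. In mixed RNA from sorted cells, fewer cells of a type and less RNA per cell cannot be told apart.

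Levels are given as log2 of the processed signal relative to the array's 75th percentile, so that 0 is the level of a spot at that percentile, and they are set side by side within a gene only. A difference is culture 2 minus culture 1 of these log2 levels, averaged over the cell types. Its standard error (SE) is from limma, a linear model whose variances are moderated over genes. The SE reflects how far NFIA and control pairs depart from a shared difference, and not the spread between cultures. The 10 neural stem and progenitor markers, among them Nes, Sox1, Sox2, Hes5 and Prom1, were well above background on all 4 primary arrays. Of 14185 genes tested, 0 passed an adjusted p of 0.05 (0% of genes tested, limma with Benjamini-Hochberg adjustment), and the smallest adjusted p was 0.206. At an unadjusted p under 0.05 there were 1426 genes (10.1%), of which 861 (6.07%) were lower and 565 (3.98%) higher in culture 2. No gene is therefore called changed, and the values that follow describe these 4 arrays.

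Culture number held a smaller part of what set the 4 arrays apart than cell type did. Of the sum of squares among them over all genes, 28.8% lay between cultures, 59.7% between cell types and 11.5% in the remainder that neither shared. The share between cultures was below an even split over these parts. Across genes, which are not independent replicates, the culture difference in NFIA cells correlated with that in control cells at r = 0.43, while the median difference of all genes was -0.05. There were 179 genes (1.26%) at least 2-fold lower in culture 2 in both cell types and 116 (0.818%) at least 2-fold higher in both. This count rule and the all-HOX list were chosen after values had been seen.

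**Figure D1:**
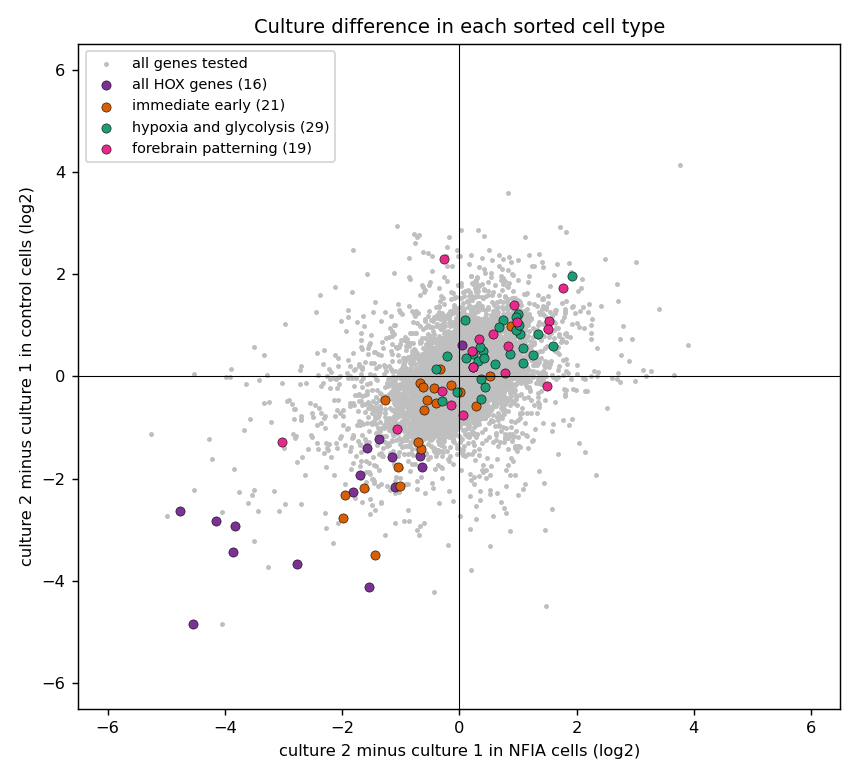
Culture 2 minus culture 1 (log2) in NFIA cells on the x axis and in control cells on the y axis, 1 point per gene for the 14185 genes tested, with 4 gene lists in colour. Most HOX points lie in the lower left, where both cell types of culture 2 read lower, and the hypoxia and glycolysis points lie mainly in the upper right.

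HOX genes made up the lower end of the contrast. Of 39 HOX genes with a probe, 16 passed the filter, which asks for a spot well above background on at least 2 of the 8 arrays, and 23 did not. In culture 2 both cell types lay below both of culture 1 for 15 of the 16, against 19.6% of all genes tested, and 13 were at least 2-fold lower in both cell types, beside 1.26% of all genes. Several HOX genes passed the filter through culture 1 or the secondary arrays, which alone favours a difference, so these counts describe them and support nothing further. The same limit holds for every other gene below that was not well above background in 1 of the cultures. Their fold bounds and p-values describe them only. With background corrected another way (normexp), 4 HOX genes met the 2-fold count, and with arrays assigned as the scanner files are attached, 1 did. Normexp added an offset of 50 to every spot, beside 75th percentile processed signals of 332 to 425 on the primary arrays. Such an offset alone makes log2 differences of dim genes smaller, so the lower count does not tell the corrections apart.

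Hoxc9, a trunk-level HOX gene and the gene with the smallest p of all (2.41e-05), read -5.10 in NFIA and -5.00 in control cells of culture 2, against -0.56 in NFIA and -0.16 in control cells of culture 1. Neither culture 2 array was well above background, so the gene was at least 19.02-fold lower there (means -5.05 and -0.36, adjusted p 0.206). Hoxb7 read -4.65 in NFIA and -5.09 in control cells of culture 2, against -1.88 in NFIA and -1.42 in control cells of culture 1, which is at least 7.79-fold lower (adjusted p 0.256). For both genes the cultures stood wide apart and the cell types of a culture close together. Hoxb4, which starts to be expressed in the hindbrain, read -6.53 in NFIA and -5.65 in control cells of culture 2, against -2.71 in NFIA and -2.72 in control cells of culture 1, at least 3.72-fold lower (adjusted p 0.25). Hoxb6 was at least 4.03-fold lower in culture 2 (adjusted p 0.364) and Hoxb8 at least 8.68-fold lower (adjusted p 0.423). These bounds hold for the processed signal only: with normexp the difference was -2.03 for Hoxc9, -1.22 for Hoxb7, -0.76 for Hoxb4 and -0.69 for Hoxb6, each nearer to 0 than its bound. The offset used with normexp alone favours smaller differences for genes as dim as these.

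Other HOX genes were bright enough in culture 2 to give an estimate. Hoxc6 read -4.06 in NFIA and -3.36 in control cells of culture 2, against -0.19 in NFIA and 0.07 in control cells of culture 1, a difference of -3.65 ± 0.45 (SE, adjusted p 0.364). Hoxa7 differed by -1.49 ± 0.18 (adjusted p 0.364). Hoxa9 was the exception, at -3.66 in NFIA and -3.89 in control cells of culture 2 against -3.70 in NFIA and -4.50 in control cells of culture 1, a difference of 0.32 ± 0.30 (adjusted p 0.708). Hoxb9, another gene of the same paralog number, read -4.25 in NFIA and -3.87 in control cells of culture 2, against -0.10 in NFIA and -1.03 in control cells of culture 1.

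Grouped by paralog number, the 5 tested genes of paralogs 1 to 3 had a median difference of -1.29, or -1.21 with the 1 gene below background in culture 2 set to its bound (0 where the bound is under 1-fold). The 3 of paralogs 4 to 5 had a median of -2.83, or -1.89 with 2 at their bound. The 8 of paralogs 6 to 9 had a median of -3.36, or -3.04 with 4 at their bound. Over all 16 the median was -1.93, or -1.77 with the 7 genes that were below background in culture 2 set to their bound, beside -0.05 for all genes. Cdx2, a direct activator of HOX genes, read -5.55 in NFIA and -5.83 in control cells of culture 2, against -1.94 in NFIA and -3.36 in control cells of culture 1. It was not well above background in culture 2, and was at least 3.88-fold lower there (adjusted p 0.364), while with normexp the difference was -0.72. With 8 genes or fewer per group, many of them dim, no order of the paralog groups is read from these medians.

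**Figure D2:**
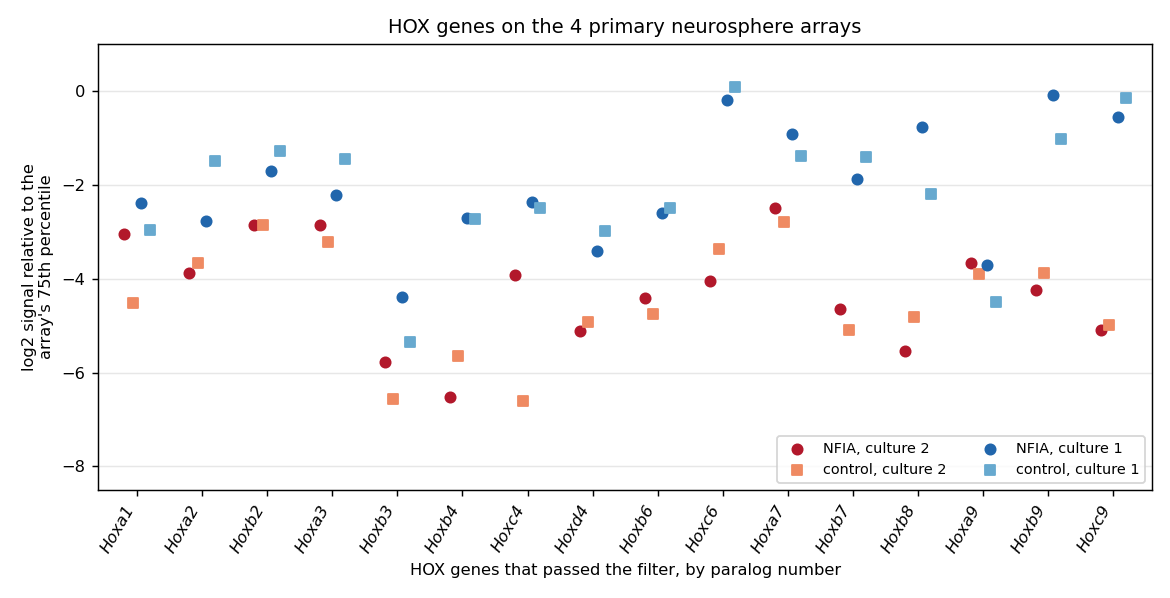
Level of the 16 tested HOX genes (log2 signal relative to the array's 75th percentile, y axis) on each primary array, ordered by paralog number along the x axis. Red and orange points are culture 2, blue points culture 1, circles NFIA cells and squares control cells. Except for Hoxa9, both culture 2 points lie below both culture 1 points.

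Genes of retinoic acid handling and of hindbrain and midbrain identity also read lower in culture 2. Cyp26a1, which breaks down retinoic acid and is itself induced by it, read -4.82 in NFIA and -3.52 in control cells of culture 2, against -1.06 in NFIA and -1.25 in control cells of culture 1, a difference of -3.01 ± 0.48 (adjusted p 0.423). Crabp1, a retinoic acid binding protein, read -0.55 in NFIA and 0.21 in control cells of culture 2, against 1.74 in NFIA and 2.87 in control cells of culture 1. Of the 17 genes tested in the retinoic acid list, 8 lay below culture 1 in both cell types and 0 above, beside 19.6% and 16.5% of all genes. The synthesizing enzyme Aldh1a3 differed by -0.92 ± 0.31 (adjusted p 0.487).

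Gbx2, a gene of the front hindbrain, differed by -1.65 ± 0.23 (adjusted p 0.394), and the Iroquois genes Irx5 and Irx3 by -1.63 ± 0.23 (adjusted p 0.41) and -1.31 ± 0.23 (adjusted p 0.45). Of the 18 genes tested in the midbrain and hindbrain list, which holds some HOX genes, 11 lay below culture 1 in both cell types and 1 above, beside the same shares, with a median of -0.59. The list also holds Egr2, a hindbrain gene that is an immediate early gene as well. Pax7 read -6.42 in NFIA and -5.36 in control cells of culture 2, against -2.91 in NFIA and -2.14 in control cells of culture 1. It was at least 4.23-fold lower in culture 2 by the processed signal (adjusted p 0.244), while with normexp the difference was -0.72. Its 2 culture 1 arrays were enough to pass the filter, which alone favours a difference. Pax3 differed by -1.83 ± 0.22 (adjusted p 0.364).

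Markers of neural crest, a tissue that arises at the border of the neural plate, also read lower. Tfap2b differed by -1.84 ± 0.37 (adjusted p 0.458) and Ngfr by -0.83 ± 0.25 (adjusted p 0.486). Of 10 neural crest genes tested, 5 lay below culture 1 in both cell types and 1, Sox10, lay above, beside 19.6% and 16.5% of all genes. Sox10 also belongs to the oligodendrocyte list.

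Forebrain and ventral genes read higher in culture 2. Six6, a regulator of the ventral forebrain and eye field, read 0.18 in NFIA and 0.56 in control cells of culture 2, against -3.59 in NFIA and -3.58 in control cells of culture 1. Its difference of 3.95 ± 0.26 (adjusted p 0.206) was the largest positive one of all genes tested. Dlx6os1, a noncoding RNA of the Dlx5 and Dlx6 locus in the ventral forebrain, read 2.27 in NFIA and 2.71 in control cells of culture 2, against 0.33 in NFIA and 1.34 in control cells of culture 1. Dlx1 and Dlx2, which drive interneuron formation, differed by 1.31 ± 0.33 (adjusted p 0.48) and 1.22 ± 0.33 (adjusted p 0.48). Each read higher in culture 2 within NFIA cells and within control cells.

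Of 19 forebrain genes tested, 7 lay above culture 1 in both cell types and 2 below, beside 16.5% and 19.6% of all genes. The list median was 0.53, with differences from -2.15 to 1.74. In both cell types 2 of the 19 were at least 2-fold higher and 2 at least 2-fold lower, beside 0.818% and 1.26% of all genes. Those that lay below culture 1 were Lhx2 and Hesx1, both early forebrain and eye regulators. Otx2, of forebrain and midbrain, differed by 0.21 ± 0.19 (adjusted p 0.701) and was well above background on all 4 arrays. In the dorsoventral list 9 of 21 lay above culture 1 in both cell types and 2 below, beside 16.5% and 19.6% of all genes, the 2 being Pax3 and Pax7. Ptch1, the Hedgehog receptor and a target of the pathway, read 2.68 in NFIA and 2.13 in control cells of culture 2, against 1.72 in NFIA and 0.87 in control cells of culture 1. Nkx2-2 differed by 1.29 ± 0.25 (adjusted p 0.456), while Gli3, a repressor of Hedgehog targets, differed by -1.11 ± 0.18 (adjusted p 0.423).

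Immediate early genes, which cells switch on within minutes of growth factor or stress signals, read lower in culture 2. Fosb read -1.15 in NFIA and -3.08 in control cells of culture 2, against 0.81 in NFIA and -0.76 in control cells of culture 1, a difference of -2.14 ± 0.22 (adjusted p 0.364). Atf3, a stress-induced factor, differed by -2.38 ± 0.27 (adjusted p 0.364), or -1.05 with normexp, with 1 culture 2 array well above background. Ccn1, a secreted matrix protein induced by serum, read 0.60 in NFIA and -1.65 in control cells of culture 2, against 2.23 in NFIA and 0.52 in control cells of culture 1. Fos and Egr1 differed by -1.41 ± 0.32 (adjusted p 0.472) and -1.58 ± 0.32 (adjusted p 0.458). These genes also read lower in control than in NFIA cells of the same culture, so that the control cells of culture 2 had the lowest level.

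Of 21 immediate early genes tested, 6 were at least 2-fold lower in both cell types, beside 1.26% of all genes, and 9 lay below culture 1 in both, beside 19.6%, and 2 above, beside 16.5%. The list median was -0.51. Those above were Ier3, an apoptosis regulator, at 0.93 ± 0.18 (adjusted p 0.456) and Btg2, which restrains cell division, at 0.26 ± 0.23 (adjusted p 0.696). Jun, Jund and Klf4, named after their values were seen, differed by -0.16 ± 0.18, -0.15 ± 0.30 and -0.09 ± 0.21 (adjusted p 0.758, 0.871 and 0.885). Of the 4 list genes with the smallest p, Ier3 had no match to TGACG, the core of the cAMP response element bound by CREB and ATF proteins. Fosb, Atf3 and Ccn1 hold it, and their promoter windows are shown for that. Each window is the 250 bases before the RefSeq start (GRCm38.p6), 5' to 3', and capitals mark the motif or its reverse complement. The windows lie at chr7:19310046-19310295, minus strand for Fosb, chr1:191183334-191183583, minus strand for Atf3 and chr3:145649986-145650235, minus strand for Ccn1.
Fosb: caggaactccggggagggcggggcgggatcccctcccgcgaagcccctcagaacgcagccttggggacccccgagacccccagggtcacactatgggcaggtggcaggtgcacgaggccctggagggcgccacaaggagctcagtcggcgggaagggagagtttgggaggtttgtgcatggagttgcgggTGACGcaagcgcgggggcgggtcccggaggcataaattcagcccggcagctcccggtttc
Atf3: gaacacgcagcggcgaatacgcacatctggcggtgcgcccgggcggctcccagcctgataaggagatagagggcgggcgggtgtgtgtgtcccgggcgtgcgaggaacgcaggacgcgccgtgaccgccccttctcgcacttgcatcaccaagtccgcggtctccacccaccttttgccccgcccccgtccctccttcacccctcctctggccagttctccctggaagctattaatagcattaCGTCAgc
Ccn1: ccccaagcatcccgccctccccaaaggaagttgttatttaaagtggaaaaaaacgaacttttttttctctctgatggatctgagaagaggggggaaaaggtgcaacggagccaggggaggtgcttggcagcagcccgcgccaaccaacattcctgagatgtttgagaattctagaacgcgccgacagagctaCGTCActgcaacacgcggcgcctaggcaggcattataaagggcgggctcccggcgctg
The motif was in 9 of the 16 list promoters matched by symbol, and in 25.9% of the 11263 promoters of genes tested. In the hypoxia and glycolysis list it was in 4 of 27. A match is a run of letters and not a shown binding site.

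Genes of the response to low oxygen and of glycolysis read higher in culture 2. Adm, a secreted peptide, read 0.99 in NFIA and 0.56 in control cells of culture 2, against -0.93 in NFIA and -1.39 in control cells of culture 1, a difference of 1.94 ± 0.28 (adjusted p 0.41). Ndufa4l2, which is induced by hypoxia and lowers mitochondrial respiration, read 1.30 in NFIA and 0.66 in control cells of culture 2, against -0.77 in NFIA and -1.08 in control cells of culture 1. Egln1, an oxygen sensor that marks HIF for destruction, differed by 1.11 ± 0.22 (adjusted p 0.458). Ero1a, an oxidase of protein folding, differed by 1.02 ± 0.19 (adjusted p 0.456) and the glycolytic enzyme Pfkp by 0.92 ± 0.20 (adjusted p 0.467). For Adm, Egln1, Ero1a and Pfkp the cell types of a culture lay closer to each other than the cultures did.

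In this list 25 of 29 genes tested had a positive difference, beside 44.3% of all genes. In both cell types 17 lay above culture 1 and 0 below, beside 16.5% and 19.6% of all genes. The median was 0.60. Vegfa, the vessel growth factor, read 3.22 in NFIA and 3.02 in control cells of culture 2, against 2.18 in NFIA and 2.19 in control cells of culture 1 (adjusted p 0.48). The genes with negative differences were Pkm, Eno1, Slc2a1 and Higd1a, named for that after their values were seen, at -0.39, -0.18, -0.13 and -0.04. The core enzymes Gapdh and Ldha differed by 0.14 ± 0.20 (adjusted p 0.818) and 0.24 ± 0.24 (adjusted p 0.726), with other probes between -0.69 and -0.06 for Gapdh and between -0.12 and 0.38 for Ldha. Stc2, a hormone that hypoxia and endoplasmic reticulum stress induce, read -0.28 in NFIA and -0.31 in control cells of culture 2, against -1.70 in NFIA and -1.69 in control cells of culture 1.

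Promoter windows of the 4 list genes with the smallest p are shown because each holds ACGTG or GCGTG, the core to which HIF binds. They are the 250 bases before the RefSeq start (GRCm38.p6), 5' to 3', with the motif or its reverse complement in capitals, at chr7:110627407-110627656, plus strand for Adm, chr14:45318573-45318822, minus strand for Ero1a, chr8:124949255-124949504, minus strand for Egln1 and chr13:6648772-6649021, minus strand for Pfkp.
Adm: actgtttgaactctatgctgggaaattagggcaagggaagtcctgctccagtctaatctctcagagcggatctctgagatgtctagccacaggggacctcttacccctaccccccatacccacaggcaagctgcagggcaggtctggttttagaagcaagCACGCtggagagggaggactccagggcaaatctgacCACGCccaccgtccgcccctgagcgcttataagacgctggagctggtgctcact
Ero1a: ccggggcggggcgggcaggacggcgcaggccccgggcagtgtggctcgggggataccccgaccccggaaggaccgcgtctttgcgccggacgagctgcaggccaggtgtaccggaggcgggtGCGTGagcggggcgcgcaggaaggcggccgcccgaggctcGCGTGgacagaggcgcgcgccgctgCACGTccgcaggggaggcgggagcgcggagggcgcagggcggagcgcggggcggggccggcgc
Egln1: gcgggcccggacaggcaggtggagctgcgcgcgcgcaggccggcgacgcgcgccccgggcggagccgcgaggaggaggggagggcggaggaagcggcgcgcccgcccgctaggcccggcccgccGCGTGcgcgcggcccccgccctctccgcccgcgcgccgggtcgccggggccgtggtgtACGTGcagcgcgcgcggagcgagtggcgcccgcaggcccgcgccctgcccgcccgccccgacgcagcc
Pfkp: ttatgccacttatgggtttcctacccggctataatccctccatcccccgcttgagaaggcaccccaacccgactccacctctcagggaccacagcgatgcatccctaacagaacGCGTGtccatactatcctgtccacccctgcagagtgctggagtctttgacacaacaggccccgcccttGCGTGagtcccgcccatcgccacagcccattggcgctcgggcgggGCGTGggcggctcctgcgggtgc
One or the other form was in 21 of the 27 matched promoters of the list, and in 55.1% of the promoters of genes tested and 38.6% of all 27025 in the table. In the immediate early list, which read lower, it was in 12 of 16. ACGTG alone was in 13 of the 27 and in 6 of 16 immediate early promoters, and in 21.2% for genes tested. ACGTG is also part of the E-box CACGTG, so a match does not name a factor.

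**Figure D3:**
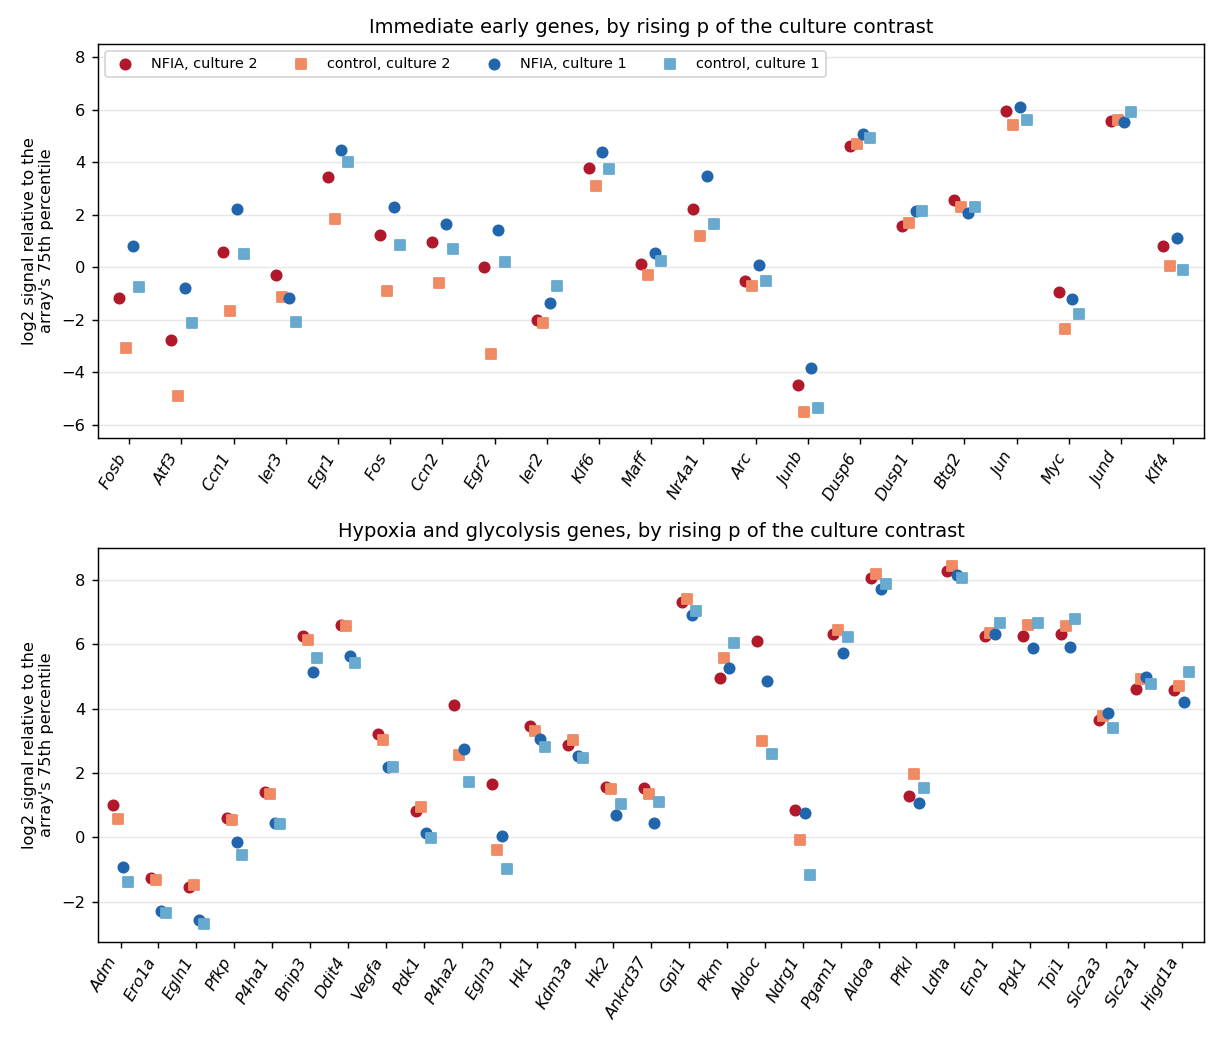
Levels (log2 signal relative to the array's 75th percentile, y axis) of the 21 immediate early genes above and the 29 hypoxia and glycolysis genes below, on each primary array, ordered along the x axis by rising p. Red and orange points are culture 2, blue points culture 1, circles NFIA cells and squares control cells. At the left of the upper panel culture 2 lies below culture 1 except for Ier3, and at the left of the lower panel it lies above.

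The overexpressed gene itself read higher in culture 2, in control cells too. Nfia read 0.93 in NFIA and -0.30 in control cells of culture 2, against -0.24 in NFIA and -1.30 in control cells of culture 1, a difference of 1.09 ± 0.19 (adjusted p 0.45). A second probe read -0.88 in NFIA and -2.99 in control cells of culture 2, against -1.88 in NFIA and -3.88 in control cells of culture 1. On both probes NFIA cells stood above control cells within each culture, while control cells of culture 2 stood just below NFIA cells of culture 1 on the first probe and further below on the second. The related genes Nfix and Nfib differed by 1.45 ± 0.31 (adjusted p 0.467) and 0.80 ± 0.19 (adjusted p 0.48).

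Among astrocyte genes, Aldh1l1, a folate enzyme that marks astrocytes, read 3.29 in NFIA and 0.86 in control cells of culture 2, against 1.27 in NFIA and -0.81 in control cells of culture 1. Its difference was 1.84 ± 0.24 (adjusted p 0.364), and the sodium pump subunit Atp1b2 differed by 1.04 ± 0.19 (adjusted p 0.456). Of 32 astrocyte genes tested, 23 had a positive difference, beside 44.3% of all genes. The 5 that lay above culture 1 in both cell types and the 3 below were no larger shares than the 16.5% and 19.6% of all genes. Gfap, the filament protein of mature astrocytes, was not well above background on any primary array. Bcan, a proteoglycan of glial matrix, differed by 1.61 ± 0.27 (adjusted p 0.423). In the oligodendrocyte list 5 of 14 lay above and 1, Mag, below, with Olig2 at 1.47 ± 0.29 (adjusted p 0.458), Olig1 at 1.73 ± 0.52 (adjusted p 0.486) and Pdgfra at -0.84 ± 0.18 (adjusted p 0.461).

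Genes of cell division read lower in culture 2 by small amounts. Of 27 cell cycle genes tested, 26 had a negative difference, beside 55.7% of all genes, and 13 lay below culture 1 in both cell types, beside 19.6%. The control array of culture 1 was the highest of the 4 for 21 of the 27, and for 5337 of all 14185 genes. The count of 13 was 0 with arrays as the scanner files are attached. It was 27 without PN_control 2 and 24 without PN_NFIA 1. With a primary array left out the rule asks less, so the count can only stay or rise. Mcm5, a subunit of the replication helicase, read 2.71 in NFIA and 3.29 in control cells of culture 2, against 3.80 in NFIA and 4.30 in control cells of culture 1, a difference of -1.05 ± 0.18 (adjusted p 0.44). Mcm7 differed by -0.78 ± 0.18 (adjusted p 0.48), Tyms, which makes thymidylate, by -0.65 ± 0.20 (adjusted p 0.486), and the mitotic cyclin Ccnb1 by -0.54 ± 0.18 (adjusted p 0.487). Mki67 and E2f1, named after their values were seen, differed by -0.10 ± 0.19 (adjusted p 0.858) and 0.06 ± 0.18 (adjusted p 0.916).

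Of 23 tested genes of the mitochondrial respiratory chain 23 had a negative difference, beside 55.7% of all genes, with a median of -0.29. There were 11 below culture 1 in both cell types, beside 19.6% of all genes. That count was 1 with arrays as attached. It was 22 without PN_control 2 or without PN_NFIA 1, under a rule that then asks less. Control cells of culture 1 had the highest level for 22 of the 23, and for 5337 of all 14185 genes. Uqcrc1, of complex III, differed by -0.97 ± 0.21 (adjusted p 0.469) and cytochrome c, Cycs, by -0.61 ± 0.22 (adjusted p 0.489). Ribosomal protein genes had a median of -0.04, with 2 of 22 above culture 1 in both cell types and 9 below, beside 16.5% and 19.6% of all genes. The control array of culture 1 also had the smallest share of spots above background of the 4, and its part in these lists was not tested.

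Neural progenitor and neuron genes showed no common direction. Of 22 neural stem and radial glia genes tested, 4 lay above culture 1 in both cell types and 5 below, beside 16.5% and 19.6% of all genes. The list median was 0.07. Nes and Sox2 differed by -0.09 ± 0.17 (adjusted p 0.861) and 0.48 ± 0.23 (adjusted p 0.548). Fut4, the enzyme that makes the stem cell epitope SSEA1, read -5.63 in NFIA and -5.35 in control cells of culture 2, against -3.55 in NFIA and -3.96 in control cells of culture 1, and was at least 1.81-fold lower in culture 2, where it was not well above background (adjusted p 0.44). Among 25 neuron genes 4 lay above and 4 below, beside the same shares. The neurofilament genes Nefl and Nefm differed by -1.498 ± 0.26 (adjusted p 0.44) and -1.29 ± 0.27 (adjusted p 0.461), as did the cortical factor Tbr1 by -1.07 ± 0.19 (adjusted p 0.453). Gad1, which makes the transmitter GABA and was named after its values were seen, differed by 1.35 ± 0.36 (adjusted p 0.48).

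Many genes of non-neural and early embryonic cells were highest in the NFIA cells of culture 1. This array held the highest of the 4 values for 13 of 14 epithelium and 14 of 19 endoderm and yolk sac genes. The same held for 17 of 24 pluripotency, 6 of 13 primitive streak and 7 of 12 endothelium and blood genes. For 14 of 24 mesenchyme genes it was highest too, and NFIA cells of culture 2 were for the other 10. Over all genes tested, this array was highest for 2504 of 14185 (17.7%). The mesoderm gene T, brachyury, read -0.81 in NFIA and -0.02 in control cells of culture 2, against 2.52 in NFIA and 0.50 in control cells of culture 1. Krt8, a keratin of simple epithelia, read -2.47 in NFIA and -1.92 in control cells of culture 2, against 0.38 in NFIA and -1.39 in control cells of culture 1. Sox17, of endoderm and vessel lining, read -3.80 in NFIA and -4.05 in control cells of culture 2, against -1.08 in NFIA and -3.91 in control cells of culture 1. In each case the culture 1 NFIA array was highest. The pluripotency genes Lin28a and Pou5f1 differed by -1.51 ± 0.33 (adjusted p 0.469) and -0.75 ± 0.19 (adjusted p 0.48). The list medians were -0.55 for epithelium, -0.32 for endoderm and yolk sac, -0.33 for pluripotency, -0.44 for primitive streak and -0.16 for endothelium and blood.

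Afp, the fetal serum protein of yolk sac and liver, read -4.62 in NFIA and -6.54 in control cells of culture 2, against -1.29 in NFIA and -6.56 in control cells of culture 1, and was well above background in NFIA cells of culture 1 alone. It did not pass the filter for testing. The endothelial tight junction gene Cldn5 differed by -2.21 ± 0.68 (adjusted p 0.486) and Cd34, a marker of vessel lining and blood stem cells, by -2.71 ± 0.50 on 1 probe (adjusted p 0.456) and -0.28 on the other. Among the 15 lower genes with the smallest p, Gimap6, a GTPase of lymphocytes and vessel cells, was at least 4.91-fold lower in culture 2 (adjusted p 0.364). Ctla2b was at least 4.88-fold lower (adjusted p 0.32), and the normexp differences of these genes were -0.99 and -0.97. Among the primary arrays, both genes were well above background in culture 1 only, which was enough to pass the filter. Adcy4, an adenylyl cyclase, differed by -2.62 ± 0.25 (adjusted p 0.32), or -0.92 with normexp, with 1 culture 2 array well above background. Dab2, an endocytic adaptor of yolk sac, differed by -2.06 ± 0.28 (adjusted p 0.394).

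Over the marker lists fixed for other cell types, the summed epithelium signal of 4 markers was 7.81 times the 75th percentile in NFIA and 6.92 in control cells of culture 2, against 40.9 in NFIA and 9.90 in control cells of culture 1. The 5 pluripotency markers summed to 40.8 in NFIA and 35.3 in control cells of culture 2, against 70.4 in NFIA and 37.8 in control cells of culture 1. For the 8 endoderm markers, 3 were well above background in NFIA and 3 in control cells of culture 2, against 6 in NFIA and 3 in control cells of culture 1, with Apoa1 and Alb at background throughout. Their summed signal ran otherwise, at 18.4 in NFIA and 13.1 in control cells of culture 2, against 14.2 in NFIA and 10.46 in control cells of culture 1. The 4 endothelium markers had 2 above background in each cell type of culture 2, against 3 in NFIA and 2 in control cells of culture 1. Their signal summed to 20.1 in NFIA and 13.9 in control cells of culture 2, against 15.5 in NFIA and 10.98 in control cells of culture 1. The part of such cells in the results above was not tested.

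**Figure D4:**
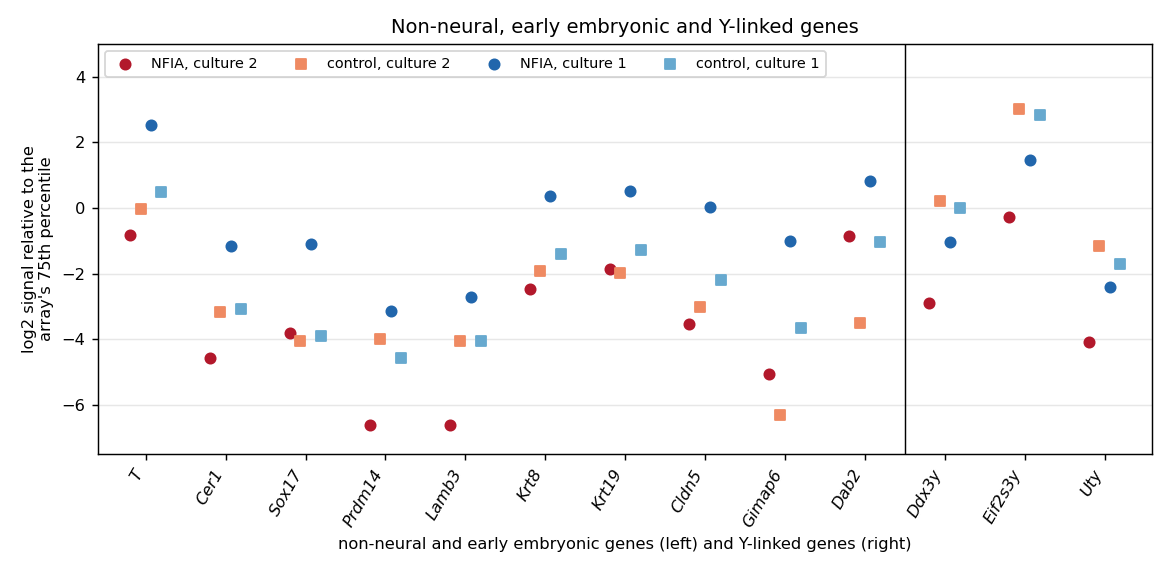
Levels (log2 signal relative to the array's 75th percentile, y axis) of 10 non-neural and early embryonic genes and, right of the line, 3 Y-linked genes on each primary array. Red and orange points are culture 2, blue points culture 1, circles NFIA cells and squares control cells. For the first 10 genes the NFIA cells of culture 1 lie highest, and for the Y-linked genes the NFIA cells of culture 2 lie lowest.

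Y-linked genes also set the NFIA cells of the cultures apart. Ddx3y, an RNA helicase, read -2.89 in NFIA and 0.22 in control cells of culture 2, against -1.03 in NFIA and 0.01 in control cells of culture 1. In NFIA cells its signal was 11.6% of that in control cells of the same culture in culture 2, against 48.7% in culture 1. For Eif2s3y the shares were 10.3% in culture 2 and 38.8% in culture 1, and for Uty 13.2% in culture 2 and 62.4% in culture 1. In secondary NFIA cells Ddx3y read -4.51 in replicate 2 and -4.53 in replicate 1, not well above background in either. Xist was not well above background on any array. These shares move with the non-neural genes above in the NFIA cells of culture 1, and their part in the culture differences of NFIA cells was not tested.

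The culture difference was compared between the cell types directly. With 1 array per cell type and culture, the spread for this test comes from the secondary pairs alone. Of 14185 genes, 0 passed the adjusted threshold (0%; limma, smallest adjusted p 1), and 102 (0.719%) had an unadjusted p under 0.05. Among the 10 genes with the smallest p in each direction, Prdm14, a pluripotency and germ cell regulator, had a culture difference of -3.50 in NFIA cells and 0.57 in control cells. Cer1, a secreted inhibitor from endoderm, had -3.41 in NFIA and -0.07 in control cells, and the laminin gene Lamb3 had -3.91 in NFIA and -0.02 in control cells. In all 3 the NFIA array of culture 1 was the highest.

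In the other direction, the control array of culture 1 stood apart for a set of genes. Cd74, the invariant chain of antigen presentation, read -0.36 in NFIA and -0.31 in control cells of culture 2, against -2.69 in NFIA and 1.61 in control cells of culture 1. Agbl3, an enzyme of tubulin modification, read -2.33 in NFIA and -2.29 in control cells of culture 2, against -3.19 in NFIA and 0.72 in control cells of culture 1. Krtap12-1 and Defb26 were likewise highest in that array. Defa5, a defensin, and BC061237 were among the genes with the smallest p of the whole contrast. BC061237 was at least 4.17-fold lower in culture 2 by the processed signal (adjusted p 0.206), while with normexp the difference was -0.92. Defa5 was highest in the NFIA array of culture 1 instead, at -0.46 against -1.47 in control cells. It differed by -2.60 ± 0.21 (adjusted p 0.25), or -1.29 with normexp.

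The secondary arrays numbered 2 and 1 gave another contrast of the same form, though the labels do not say that a number marks the same culture at both passages. The test of the difference between the primary and secondary contrasts passed 0 of 14185 genes (0%; smallest adjusted p 0.0762), with 3316 (23.4%) at an unadjusted p under 0.05. Across genes the contrasts correlated at r = -0.11. HOX genes were lower in the arrays numbered 2 at both passages for 13 of the 16, as 3352 of all 14185 genes were, and the secondary median was -1.45. Hoxc9 differed by -2.29 in secondary neurospheres, and the test against the primary difference gave an adjusted p of 0.125.

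Immediate early genes mostly read in opposite directions at the 2 passages. Of the 21, 17 were lower in the primary arrays numbered 2 and higher in the secondary ones, as 4551 of all 14185 genes were, and the secondary median was 0.84. Fosb differed by 1.96 in secondary neurospheres (adjusted p of the difference between passages 0.0871). Forebrain genes had a secondary median of -1.28, and 12 of 19 were higher in primary and lower in secondary arrays numbered 2, as 3789 of all genes were. Dlx6os1 differed by -2.86 there (adjusted p of the difference 0.0871) and Six6 by -1.60 (adjusted p of the difference 0.0871). Hypoxia and glycolysis genes read higher in arrays numbered 2 at both passages for 22 of 29, as 2493 of all genes did, with a secondary median of 0.87.

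The remaining lists had medians between -0.38 and 0.33. Their counts above and below culture 1 in both cell types stand beside 16.5% and 19.6% of all genes. Notch pathway genes had a median of 0.33, with 3 of 17 above culture 1 in both cell types and 0 below. Wnt pathway genes had a median of -0.13, with 3 of 25 above and 9 below, and Wif1, a secreted Wnt inhibitor, differed by 1.94 ± 0.29 (adjusted p 0.423). Cholesterol synthesis had 1 of 24 above and 0 below, the interferon response 0 of 15 above and 3 below, metallothionein and antioxidant genes 0 of 17 above and 5 below, and heat shock genes 0 of 15 above and 6 below. For these 4 lists the medians lay between -0.38 and -0.27. BMP, SMAD and ID genes (1 of 19 above, 3 below), FGF feedback genes (3 of 17 and 2), imprinted genes (6 of 25 and 3), integrated stress response genes (2 of 22 and 6), proneural genes (3 of 22 and 1), ependymal genes (2 of 12 and 0), germline genes (3 of 7 and 0), CDK inhibitors and p53 targets (3 of 20 and 5), mesenchyme genes (0 of 24 and 4) and matrix genes (1 of 22 and 2) had medians between -0.24 and 0.24.

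**Figure D5:**
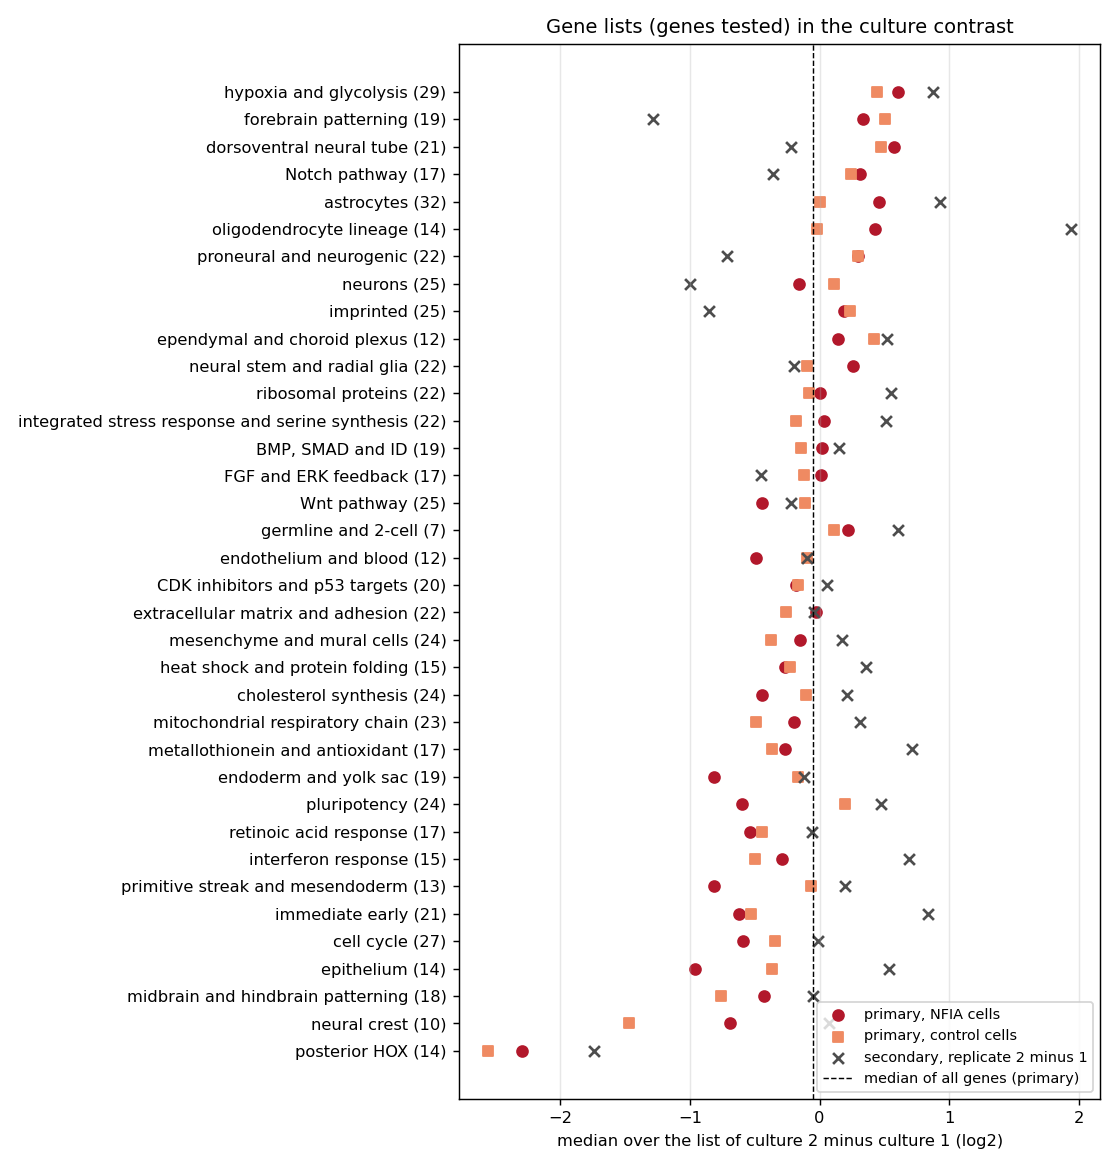
Median over each gene list of culture 2 minus culture 1 (log2, x axis) in primary NFIA cells (red circles) and control cells (orange squares), with the secondary replicate 2 minus 1 difference (crosses), and the number of genes tested in brackets. The dashed line is the median of all genes. The posterior HOX list, which also holds Cdx2, lies farthest to the left at both passages.

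Among the 15 higher genes with the smallest p, those not yet named were of mixed kinds. Gpr179, a receptor known in retina, read -1.15 in NFIA and -4.45 in control cells of culture 2, against -4.16 in NFIA and -6.68 in control cells of culture 1, and was well above background on 1 array of each culture. Omg, an oligodendrocyte and neuron surface protein, was at least 1.25-fold higher in culture 2 and below background on both culture 1 arrays (adjusted p 0.25). Kcnn3, a calcium-activated potassium channel with 2 probes, differed by 1.39 ± 0.18 on 1 probe and 1.35 on the other (adjusted p 0.364). Crb1, a polarity protein of retina, differed by 1.46 ± 0.19 (adjusted p 0.364), Shtn1, a protein of axon outgrowth, by 1.38 ± 0.20 (adjusted p 0.41) and Cpne8 by 1.29 ± 0.18 (adjusted p 0.41). Pde3a, Tlr7 and Krtap31-1 were below background on both culture 1 arrays and at least 1.47-fold, 1.40-fold and 1.13-fold higher in culture 2. On the lower side, Foxq1 differed by -2.07 ± 0.23 (adjusted p 0.364), or -0.44 with normexp, with 1 culture 2 array well above background.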

How the data were processed

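RNA of 8 sorted samples was measured on 1-colour Agilent arrays of 1 slide. Per the file headers, the deposited scanner files hold background-subtracted spot intensity and flags of other kinds (0 or 1) from Feature Extraction 10.5.1.1 (10.7.3.1 per the submitters' processing notes). The authors' deposited value table holds log2 values that are, by comparison with the files, set against the 75th percentile of the array, with every probe's median across arrays at 0. It was used to assign arrays to samples, since 7 columns matched another sample's file.

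Signals were taken to log2 minus the array's 75th percentile. Probes well above background on at least 2 of 8 arrays and with 1 gene symbol, through the transcript accession and RefSeq, were kept (26056 of 55681 probes have a symbol, and outlier flags removed 126). The brightest probe of a gene was used. For 3797 genes several probes were kept.

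Limma 3.58.1 in R 4.3.3 was fitted to all 8 arrays with 4 group means and a replicate term in each passage, which leaves 2 residual degrees of freedom. This pairs arrays of equal number. The labels describe mixed cultures sorted into both cell types, but do not state that equal numbers share a culture. The culture difference in NFIA cells correlated with that in control cells across genes at 0.43 in primary and 0.45 in secondary neurospheres. Replicates are not stated to be independent cultures. The p-values of this fit set a difference against how far NFIA and control pairs depart from a shared one. They do not measure the spread between cultures. The number of arrays limits precision. A gene not well above background on either array of the lower culture is given as at least a fold, computed with the dim arrays set no lower than the dimmest spot their scanner called well above background.

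The members and gene lists were chosen with earlier results of these data known. Named genes are the 15 with the smallest p in each direction, the 4 of each list with the smallest p, 10 each way for the difference between cell types and fixed markers. Other genes printed were named after their values were seen, and not all named genes are printed. Alternatives covered background correction, normalization, filters, probe choice, the value table, the file assignment, the source names, the replicate terms and left-out arrays. Promoters are RefSeq entries of the table for GRCm38.p6, first listed per symbol.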

Additional observations from a re-analysis of the deposited data

How the results depend on the processing

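For the primary culture contrast, 0 genes passed under each of the 19 alternatives, and the count at an unadjusted p under 0.05 lay between 403 and 2432. Without the replicate block in secondary neurospheres 0 passed and 564 had an unadjusted p under 0.05. For the difference between cell types 0 passed under each of 12 alternatives, also with the replicate block in secondary neurospheres, with 44 to 474 at an unadjusted p under 0.05. Leaving out a primary array could not be fitted for that result. For the primary against the secondary contrast, 136 passed with normexp (offset 50, on median spot and background signals, as the mean signal was not used here), and between 0 and 426 with 1 array left out, the 426 without SN_NFIA 1 or without SN_NFIA 2, and 0 under the other alternatives. The cause was not tested. Of the 30 genes with the smallest p, 8 were not tested when both arrays of a group had to be above background. Those tested kept their sign under every alternative but 1: with arrays as the scanner files are attached, 13 of 30 took the other sign, among them Pax7, Cdx2, Six6 and Aldh1l1. Leaving out secondary arrays, their replicate block or the primary cell type term cannot change a primary difference. Without a primary array, the difference is that of the other cell type alone, and a small p already favours genes whose cell types agree. Signs kept under these alternatives therefore do not show stability. With normexp, 21 of the 30 moved by over 1.5 times, and with cell types from the source names 5 did, with Fosb at -1.36, Ctla2b at -1.55 and Aldh1l1 at 2.88. With the files as attached, 1 HOX gene, 0 immediate early genes, 4 hypoxia genes, 0 cell cycle genes and 1 respiratory chain gene met the counts given as 13, 6, 17, 13 and 11. With 1 array left out the rules ask less or the same, so these counts can only stay or rise, and they do not show stability. The 2-fold counts then use the cell types that keep both primary arrays, and the other counts all primary arrays that remain. The first 3 counts lay between 13 and 15, 6 and 8, and 17 and 22. The cell cycle count lay between 13 and 27 and the respiratory chain count between 11 and 22. Both of these were highest without PN_control 2, the respiratory chain count also without PN_NFIA 1.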
